A study of Mus musculus with 38 samples.

Results

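The comparison described here set 4 retrovirally transduced cultures of mouse CD4+ T helper cells, harvested on day 5 with a control vector, against 4 cultures of the same lineage and genotype that were kept without vector to day 7. It used 8 of the 14 RNA-seq libraries in a series of 38 samples, which also holds p300 and H3K4me1 chromatin immunoprecipitations and an input. WT Th1 replicate 2 and the RNA libraries with T-bet or GATA3 vector enter below as alternatives. The 8 libraries were chosen from the sample labels alone, as 4 pairs (Th1 from WT or STAT4 KO mice, Th2 from WT or STAT6 KO mice), so no measured value entered the choice. The question was which transcripts differed between the culture protocols in every pair, and which differed in Th1 cells or in Th2 cells only, since the control-vector libraries are the baseline of the series for ectopic T-bet and GATA3.

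All cultures began as naive CD4+ T cells sorted from spleen and lymph nodes of C57BL/6J mice that were wild type, STAT4 KO or STAT6 KO. The no-vector cultures were polarised for 7 days and then restimulated for 2 h on plate-bound anti-CD3 and anti-CD28, with IL-12 in the Th1 cultures and IL-4 in the Th2 cultures. The control-vector cultures received pMY-IRES-hNGFR, a retrovirus packaged in PlatE cells that carries human NGFR without its intracellular domain. They were stimulated on anti-CD3 and anti-CD28 for 16 h, spin-infected with polybrene, polarised for 2 days and then grown for 3 days in IL-2 with IL-12 or IL-4 after release from receptor stimulation. Their cell-type label gives day 5. A further label of the Th1 vector cultures gives 7 days and the 2 h restimulation, whereas no label gives a restimulation for the Th2 vector cultures. The vector, the infection, the day of harvest, the IL-2 phase and, for Th2, the restimulation cannot be told apart. The labels do not say whether transduced cells were sorted before RNA was made. Each group had 1 library, and the labels do not say which cultures shared animals, so every test below takes the spread of the difference over the 4 culture types as its error.

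Signalling through the T cell receptor and CD28 switches on early response genes such as the AP-1, EGR and NR4A factors within hours and cytokine genes with them. The same signal drives growth and division over the following days, which IL-2 sustains through STAT5. T-bet and STAT4 direct the Th1 programme with interferon-γ, and GATA3 and STAT6 the Th2 programme with IL-4. Cells that leave the growth phase regain receptors such as IL-7 receptor α and CD62L, the proteins of resting and memory T cells.

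Levels are in FPKM, a fragment density normalised to transcript length and library depth, and in each list of 4 values the order is Th1 from WT, Th1 from STAT4 KO, Th2 from WT and Th2 from STAT6 KO mice. Differences are control vector minus no vector on the log2(FPKM + 1) scale, which understates the change of low genes. They are given as the mean of the 4 pairs ± SE (n = 4 pairs). The SE is that of the limma fit, whose variance is moderated across genes, and not the SE of the 4 values alone. Calls were made with limma at a p under 0.05 after Benjamini-Hochberg adjustment, over all 8469 genes that reached 3 FPKM in at least 4 of the 8 libraries. Depth, estimated from the intervals of the deposited files, was 22500000 to 35200000 fragments without vector and 22200000 to 26400000 with control vector. The targeted genes checked the labels in part. Stat4 was read at 60.8, 17.5, 53.3 and 84.5 FPKM without vector and 41.0, 7.57, 21.2 and 19.2 FPKM with control vector, so it was lowest in the STAT4 KO library of each kind but not at 0. Stat6 was read at 61.8, 71.9, 35.6 and 34.6 FPKM without vector and 78.6, 76.5, 65.9 and 36.1 FPKM with control vector, and its level in the STAT6 KO library without vector was near that in WT Th2, so the gene-level value does not check that knockout.

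The control-vector and the no-vector libraries differed in a large part of the transcriptome. The control-vector libraries were higher in 3092 genes (36.5% of those tested) and lower in 1272 (15.0%), which made 4364 called genes (51.5%). Of all tested genes, 5253 (62.0%) had a difference of the same sign in all 4 pairs. The difference was at least 2-fold, a log2 difference of 1 or more, in every pair for 328 genes that were higher (3.87%) and 106 genes that were lower (1.25%), and all 434 were also called. After upper-quartile scaling these counts were 196 higher and 163 lower, and after quantile normalization 165 higher and 177 lower, so the excess of higher genes depends on the scaling. Single pairs had between 823 and 1254 genes at least 2-fold higher and between 400 and 688 at least 2-fold lower. The median gene stood 0.20 above 0 on the deposited scale, 0.05 after upper-quartile scaling, 0.02 after quantile normalization and 0.31 with small RNA genes left out, and the split of calls moved with it. After upper-quartile scaling 2337 genes were higher and 1805 lower (56.4% of called genes higher, against 70.9% as deposited), after quantile normalization 2167 were higher and 1933 lower (52.9%), and with small RNA genes left out 3663 were higher and 1047 lower (77.8%). With WT Th1 replicate 2, a further no-vector library, in place of replicate 1, 1193 genes were higher and 430 lower, and 1596 of those 1623 genes were also called with replicate 1. That library stood apart, with 20.9% of its FPKM in small RNA genes against 5.50 to 5.58% in the other no-vector libraries of the pairs. Of 230 called genes that are in the lists or among the largest common differences, 114 lost the call with it.

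The largest common rises included genes of the heat shock response, adhesion and cytokine signalling. Hspa1a, an inducible HSP70 chaperone that refolds damaged proteins (chr17:35106304-35109101, mm9), was read at 2.41, 0.274, 0.577 and 0.172 FPKM without vector and at 41.2, 21.7, 22.7 and 31.8 FPKM with control vector. Every control-vector library was far above every no-vector library, and the difference was 4.13 ± 0.20 (adjusted p = 0.000454). Hspa1b, its near-identical neighbour, gave 3.96 ± 0.20, and reads cannot be assigned between them with certainty. The promoter of Hspa1a is shown because heat shock factors bind elements of the kind searched here. In the 250 bases before its start site in RefSeq on build GRCm38.p6 (chr17:34972157-34972406, minus strand), the letters GAANNTTC occur once, 104 bases before the start, in capitals.
Hspa1a: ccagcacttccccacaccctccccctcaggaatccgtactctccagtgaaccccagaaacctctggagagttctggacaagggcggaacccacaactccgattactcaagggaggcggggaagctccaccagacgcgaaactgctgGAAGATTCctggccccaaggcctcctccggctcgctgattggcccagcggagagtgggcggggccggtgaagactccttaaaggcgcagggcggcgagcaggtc
The same letters, which read alike on both strands and were searched after the values of Hspa1a had been seen, are in 4.82% of the 6096 promoters matched among tested genes and in 4.17% of the 240 matched promoters of genes at least 2-fold higher in all pairs.

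Alcam, the adhesion molecule CD166 and ligand of CD6 (chr16:52249109-52453110), was at 2.66, 3.25, 2.44 and 2.69 FPKM without vector and 30.8, 51.0, 26.7 and 43.2 FPKM with control vector. The groups did not overlap and the difference was 3.33 ± 0.15 (adjusted p = 0.000454). Stat5a, the factor that carries IL-2 signals to the nucleus (chr11:100720665-100746483), stood at 32.0, 15.1, 23.8 and 12.4 FPKM without vector and 158, 182, 138 and 81.0 FPKM with control vector. The lowest control-vector library was above the highest no-vector library, and the difference was 2.72 ± 0.21 (adjusted p = 0.000629). Cd200, a surface protein that restrains myeloid cells, was at 9.08, 6.10, 3.29 and 6.46 FPKM without vector and 50.5, 65.2, 26.0 and 43.2 FPKM with control vector (difference 2.70 ± 0.16, adjusted p = 0.000454). Bcl2l1, which encodes the survival protein BCL-XL, rose by 1.76 ± 0.18 (adjusted p = 0.000902). Among the other members of the 12 highest, the retinoic acid carrier Crabp2 rose by 3.13 ± 0.32, the zinc importer Slc39a10 by 2.86 ± 0.24, the unconventional myosin Myo10 by 2.72 ± 0.20 and Nkain1 by 2.64 ± 0.35. Fam83g rose by 3.12 ± 0.37. Lars2, the mitochondrial leucyl-tRNA synthetase, rose by 2.93 ± 0.15, and its values are given again with the library measures because Rn45s, the ribosomal RNA precursor, moved with it. Each of the genes given here from Hspa1a to Lars2 kept its call under every alternative run.

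**Figure D1:**
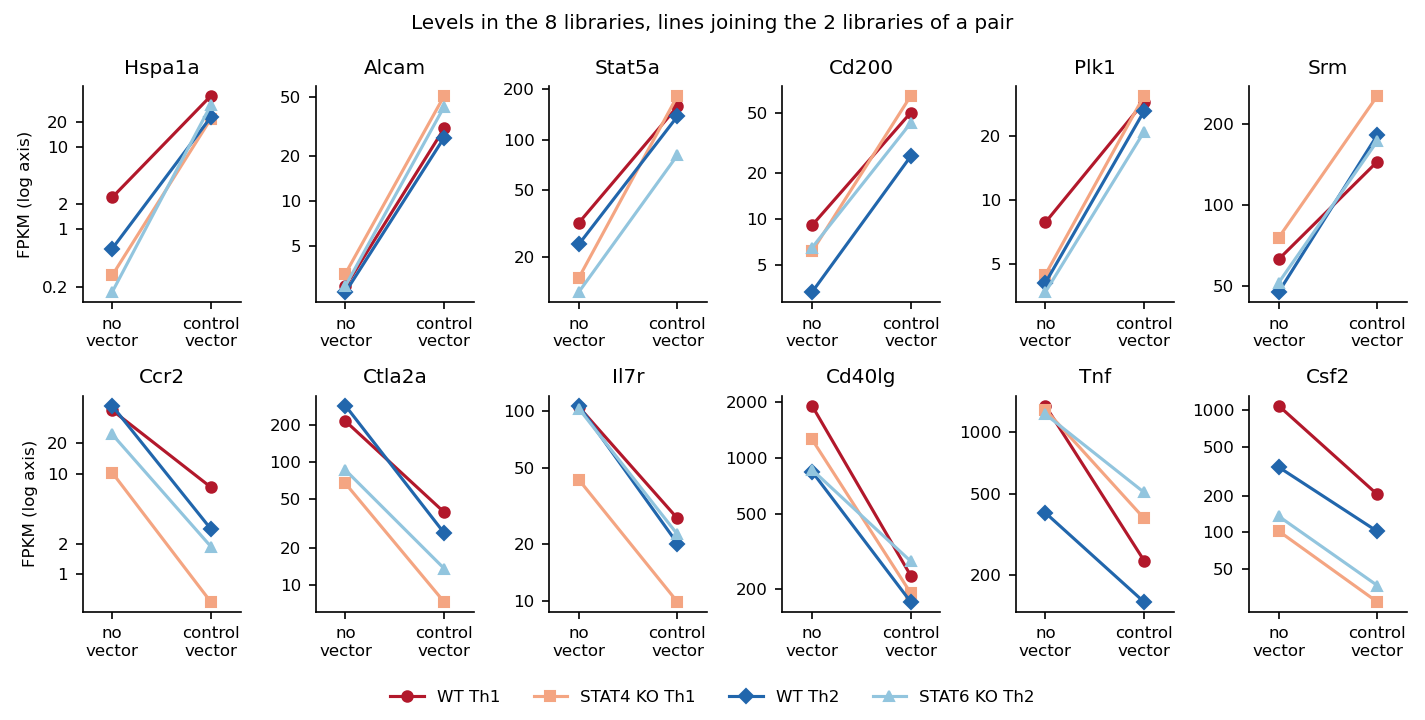
FPKM of 12 genes in the 8 libraries, on a logarithmic vertical axis, with a line joining the no-vector and the control-vector library of each pair. Each point is 1 library. All 4 lines climb for Hspa1a, Alcam, Stat5a, Cd200, Plk1 and Srm and all 4 descend for Ccr2, Ctla2a, Il7r, Cd40lg, Tnf and Csf2.

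The largest common falls included a chemokine receptor, CD40 ligand and other surface proteins of effector and memory T cells. Ccr2, the receptor of the monocyte chemoattractant CCL2 (chr9:124016922-124023879), was read at 42.6, 10.2, 47.2 and 24.5 FPKM without vector and 7.31, 0.529, 2.81 and 1.88 FPKM with control vector. Every control-vector library was below every no-vector library, and the difference was -3.02 ± 0.21 (adjusted p = 0.00051). Ctla2a, an inhibitor of cathepsin-like proteases (chr13:61035516-61037986), was read at 214, 66.7, 286 and 85.7 FPKM without vector and 38.9, 7.25, 26.4 and 13.6 FPKM with control vector, also without overlap (difference -2.86 ± 0.18, adjusted p = 0.000508). Its close relative Ctla2b gave -2.80 ± 0.14, and the pair may share reads. The promoter of Ctla2a is shown for a STAT site. TTCNNNGAA, the palindromic letters of such sites, stands once in the 250 bases before its start, 157 bases upstream (chr13:60936626-60936875, minus strand), in capitals.
Ctla2a: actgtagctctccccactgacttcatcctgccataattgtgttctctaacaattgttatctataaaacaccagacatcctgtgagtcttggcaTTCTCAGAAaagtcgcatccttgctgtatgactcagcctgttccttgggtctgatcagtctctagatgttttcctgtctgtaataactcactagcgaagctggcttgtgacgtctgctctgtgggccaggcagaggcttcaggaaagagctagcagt
These letters were in 12 of 78 matched promoters (15.4%) of genes at least 2-fold lower in all pairs, in 6.25% of the 240 of genes at least 2-fold higher and in 6.07% of all 6096. The AP-1 letters TGACTCA were in 6.41%, 2.08% and 2.76% of the same sets, and ACGTG, the core bound by hypoxia-inducible factors and also part of the E-box CACGTG, in 8.97%, 26.3% and 24.0%, all searched on both strands. In all, 13 motifs were searched, and those given here were picked after their shares had been seen.

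Cd40lg, the CD40 ligand through which helper T cells license B cells and dendritic cells (chrX:54465320-54477219), was at 1907, 1259, 848 and 867 FPKM without vector and 235, 189.7, 170.3 and 281 FPKM with control vector. The highest control-vector library was below the lowest no-vector library (difference -2.42 ± 0.25, adjusted p = 0.000896). Anxa1, the anti-inflammatory phospholipid-binding protein annexin A1, gave -2.66 ± 0.15, Evi2a, a transmembrane protein gene within an intron of Nf1, gave -2.92 ± 0.14, and Mgst2, a microsomal glutathione transferase, gave -2.22 ± 0.17. The paralogs Gp49a and Lilrb4, inhibitory-receptor family genes that lie side by side and may share reads, gave -2.76 ± 0.22 and -2.51 ± 0.21. Ly6c1 and Ly6c2, which encode the surface antigen Ly6C, gave -2.29 ± 0.11 and -2.52 ± 0.18, and Plac8 gave -2.37 ± 0.28. Ly6c2 and Plac8 were far higher in WT Th1 than in the other cultures, at 279 and 1008 FPKM without vector, and fell in all 4 pairs. The pairing by culture type decided these 3 calls, since a fit with lineage as the only covariate gave adjusted p = 0.0621 for Ly6c1, 0.116 for Ly6c2 and 0.258 for Plac8. With the T-bet and GATA3 vector libraries in place of the control-vector ones the adjusted p was 0.0667 for Ccr2, 0.141 for Ctla2a and 0.864 for Ly6c2, although those libraries use the same no-vector libraries. In the 4 libraries with T-bet or GATA3 vector, 216 of the 328 higher genes and 58 of the 106 lower genes were again at least 2-fold different, against those shared no-vector libraries.

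Of the 23 mitosis genes tested, 16 rose and none fell, with a median of 0.79 against 0.20 for all genes, of which 36.5% rose and 15.0% fell. The other 7 did not pass the test. Plk1, the kinase that drives entry into mitosis (chr7:129302951-129313389), was read at 7.82, 4.44, 4.06 and 3.67 FPKM without vector and 28.9, 30.9, 26.2 and 20.9 FPKM with control vector. The ranges were far apart and the difference was 2.24 ± 0.16 (adjusted p = 0.00051). The spindle kinase Aurka rose by 1.60 ± 0.21, its chromosomal relative Aurkb by 1.46 ± 0.19, the checkpoint kinase Bub1b by 1.35 ± 0.12 and the mitotic transcription factor Foxm1 by 1.34 ± 0.18. Of 18 mitosis promoters matched in RefSeq, 16 (88.9%) held the letters CCAAT on either strand, against 37.0% of the 6096, and 7 (38.9%) held TTTGAA, the letters of the cell cycle element CHR, against 10.4%. The promoters of 3 called members are shown with CCAAT, or ATTGG where it lies on the other strand, in capitals. Their positions on GRCm38.p6 are chr7:122159185-122159434, plus strand for Plk1, chr2:172370571-172370820, minus strand for Aurka and chr2:118597961-118598210, plus strand for Bub1b. The site is 14 bases before the start in Plk1, 51 and 19 bases before it in Aurka, and 113 bases before it in Bub1b.
Plk1: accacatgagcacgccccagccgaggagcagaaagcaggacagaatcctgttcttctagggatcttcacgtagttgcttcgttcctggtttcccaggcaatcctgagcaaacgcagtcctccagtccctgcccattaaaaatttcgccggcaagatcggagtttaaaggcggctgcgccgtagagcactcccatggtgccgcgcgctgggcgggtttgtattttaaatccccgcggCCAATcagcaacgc
Aurka: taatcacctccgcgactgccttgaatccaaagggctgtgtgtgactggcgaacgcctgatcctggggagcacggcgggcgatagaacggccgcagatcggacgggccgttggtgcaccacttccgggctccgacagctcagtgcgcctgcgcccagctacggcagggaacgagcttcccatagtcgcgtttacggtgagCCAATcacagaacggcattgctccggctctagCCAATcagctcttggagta
Bub1b: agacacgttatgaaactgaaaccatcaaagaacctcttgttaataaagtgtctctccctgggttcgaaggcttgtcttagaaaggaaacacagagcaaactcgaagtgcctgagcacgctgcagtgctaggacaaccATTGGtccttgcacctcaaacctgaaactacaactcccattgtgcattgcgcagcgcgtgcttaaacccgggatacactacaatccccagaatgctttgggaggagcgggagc
Genes at least 2-fold higher in all pairs held CCAAT in 40.0% of 240 matched promoters and those at least 2-fold lower in 33.3% of 78, both near the share of all tested genes.

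Of the 26 DNA replication genes, 13 rose and none fell, with a median of 0.81, against 36.5% and 15.0% of all genes. All 26 were at their lowest in the WT Th1 library without vector, and 17 were at their highest in WT Th1 with control vector, so the median was 1.66 in the WT Th1 pair against 0.23 in STAT4 KO Th1, 0.40 in WT Th2 and 0.56 in STAT6 KO Th2. The pair medians of all genes were 0.31, 0.18, 0.21 and 0.17, so in STAT4 KO Th1 the list was near all genes. Mcm3, a subunit of the replicative helicase, was at 20.3, 41.9, 36.3 and 27.9 FPKM without vector and 79.5, 64.3, 72.0 and 60.3 FPKM with control vector. Its WT Th1 library without vector was the lowest of the 8, and the difference was 1.14 ± 0.22 (adjusted p = 0.00545). The replication licensing factor Cdt1 rose by 1.54 ± 0.21 and the S phase cyclin Ccne1 by 1.18 ± 0.19. The p53 target list had 13 of 19 genes higher and none lower, with a median of 0.80, against the same shares of all genes. These were the cell cycle inhibitor Cdkn1a, which was at 203, 56.2, 74.3 and 41.2 FPKM without vector and 366, 153, 131 and 170.4 FPKM with control vector, and 12 others. In each pair the control-vector library had the higher Cdkn1a level, although the groups overlapped (difference 1.28 ± 0.23, adjusted p = 0.00435). The apoptosis effector Perp rose by 2.56 ± 0.32, Phlda3, an inhibitor of the kinase AKT, by 2.22 ± 0.26, and Gtse1, which binds p53 in dividing cells, by 2.55 ± 0.18.

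In the ribosome biogenesis list 16 of 22 genes rose and none fell (median 0.70), against 36.5% and 15.0% of all genes. Srm, which makes spermidine, was read at 63.0, 75.8, 47.6 and 51.6 FPKM without vector and 145, 254, 182 and 173 FPKM with control vector, again without overlap (difference 1.64 ± 0.16, adjusted p = 0.000771). Polr1b, a subunit of RNA polymerase I, rose by 1.31 ± 0.18 and the ribosomal RNA pseudouridine synthase Dkc1 by 1.10 ± 0.11. Of 20 amino acid and ATF4 genes 12 rose and none fell (median 0.90), among them the serine-pathway enzyme Shmt2 (1.79 ± 0.13) and the large neutral amino acid transporter Slc7a5 (1.07 ± 0.13). Glycolysis had 13 of 18 genes higher and none lower (median 0.68), with the phosphofructokinase Pfkl at 1.71 ± 0.21 and Pgam1 at 1.26 ± 0.13. The hypoxia response list had 7 of 15 higher and 1 lower (median 0.70), with pair medians of 0.74, 1.03, 0.07 and 1.14. ER chaperones had 7 of 16 higher and none lower (median 0.52), a count near the 36.5% of all genes, and 5 higher and 1 lower after upper-quartile scaling. The pair medians of the ER chaperones were 0.93, 0.69, 0.01 and 0.41. In WT Th2 the hypoxia and ER chaperone medians were below the 0.21 of all genes. Hyou1, an ER chaperone, was at 1.76 ± 0.19. The oxidative stress list had 6 of 10 higher and none lower (median 0.48), but 3 of 10 higher after upper-quartile scaling and after quantile normalization, with the thioredoxin reductase Txnrd1 at 1.20 ± 0.14. In the heat shock list 6 of 11 rose, with the mitochondrial chaperonin Hspd1 at 1.32 ± 0.13, and 1 fell, the HSP110 relative Hspa4l at -1.45 ± 0.20. With WT Th1 replicate 2, the higher counts were 8 for mitosis, 4 for DNA replication, 8 for p53 targets, 8 for ribosome biogenesis, 5 for amino acid and ATF4 genes, 5 for glycolysis, 2 for hypoxia and 2 for oxidative stress, with none lower. In that setting 1193 of all 8429 genes tested were higher and 430 lower. The counts for DNA replication and hypoxia were near that share of higher genes.

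**Figure D2:**
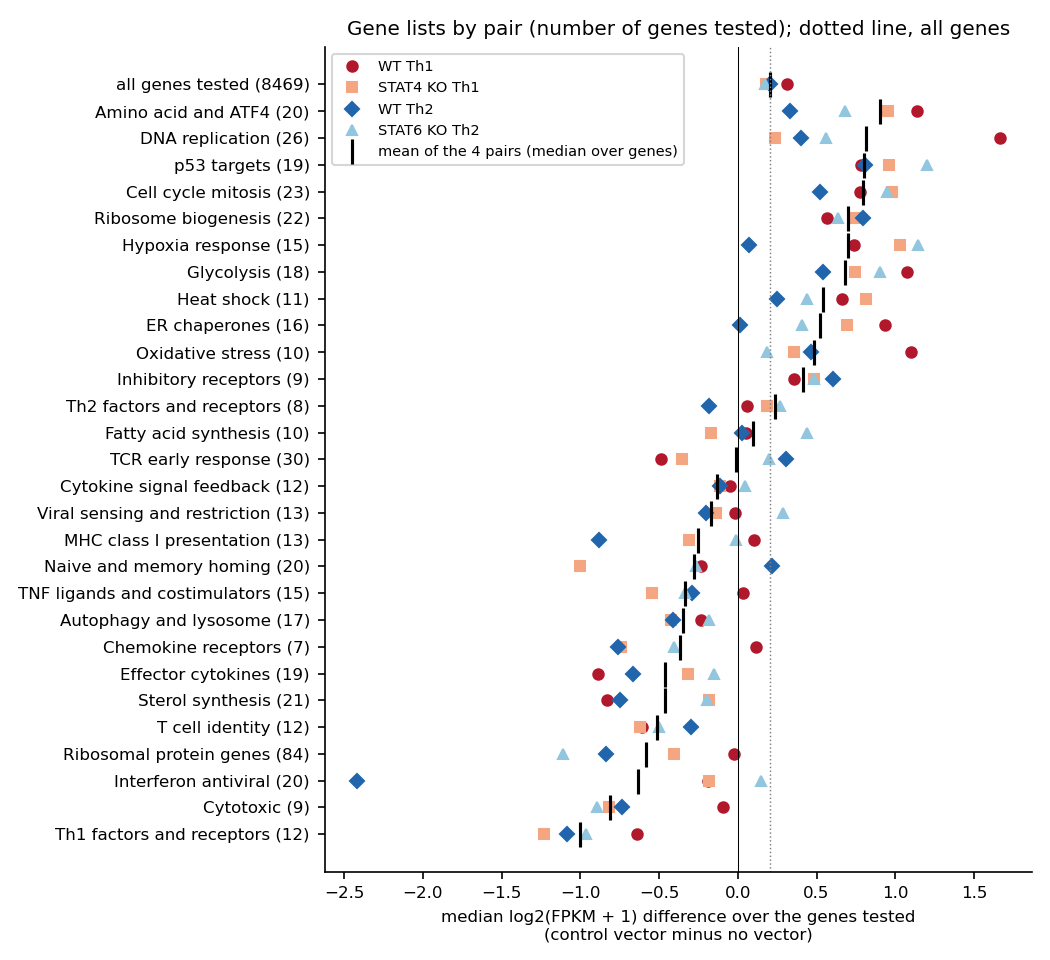
Median log2 difference, control vector minus no vector, of each gene list with at least 7 tested genes, by pair (coloured points) and over the mean of the 4 pairs (black tick); the dotted line is the median of all genes tested. Mitosis, DNA replication, p53, glycolysis, amino acid and ribosome biogenesis lists lie above the line, and the Th1, cytotoxic, T cell identity and sterol lists below it.

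Several lists of cytokine, ligand, lineage and resting-state genes had more members lower than higher with control vector. Of all genes tested 15.0% were lower and 36.5% higher. Of 19 effector cytokine genes tested, 6 fell and 2 rose (median -0.46). Tnf was at 1351, 1293, 402 and 1228 FPKM without vector and 234, 378, 147 and 507 FPKM with control vector. Each pair was lower with control vector, although the lowest no-vector library, WT Th2, was below the highest control-vector library, STAT6 KO Th2 (difference -1.76 ± 0.24, adjusted p = 0.00175). Csf2, which encodes GM-CSF, was read at 1088, 102, 342 and 135 FPKM without vector and 204, 26.9, 102 and 36.6 FPKM with control vector. It was lower in all 4 pairs and highest in WT Th1 in both groups (difference -1.97 ± 0.16, adjusted p = 0.000631; 0.102 without the pairing and 0.457 with the T-bet and GATA3 vectors). Ifng, the Th1 signature cytokine, was read at 8326, 60.3, 14.1 and 135 FPKM without vector and 4074, 22.6, 2.40 and 37.3 FPKM with control vector. WT Th1 stood far above the other cultures in both groups and every pair was lower with control vector (difference -1.60 ± 0.20, adjusted p = 0.00146; 0.548 without the pairing, 0.0819 with WT Th1 replicate 2 and 0.77 with the T-bet and GATA3 vectors). In the libraries with T-bet or GATA3 vector, Ifng was at 5199, 1739, 0.945 and 13.9 FPKM. Il4, the Th2 cytokine, did not pass the test. It was read at 3.61, 22.4, 513 and 20.5 FPKM without vector and 9.75, 12.9, 173 and 8.71 FPKM with control vector, so WT Th2 held the highest level in both groups. Il2 likewise did not pass, at 2762, 3765, 341 and 3230.5 FPKM without vector and 1122, 2173, 535 and 2538 FPKM with control vector.

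Among 15 TNF ligands and costimulators 5 fell and 2 rose (median -0.34), against 15.0% and 36.5% of all genes. Tnfsf14, the ligand LIGHT, was at -1.24 ± 0.25 (adjusted p = 0.00736, and 0.0787 with the T-bet and GATA3 vectors). Of 12 Th1 factors and receptors 8 fell and 1 rose (median -1.0), and the median was below 0 in all 4 pairs. The riser was the receptor chain Il12rb1 (1.38 ± 0.29, adjusted p = 0.00781, and 0.0971 with WT Th1 replicate 2). The IL-18 receptor chain Il18r1 was at 328, 68.1, 8.46 and 63.1 FPKM without vector and 96.5, 23.4, 1.90 and 33.4 FPKM with control vector, which kept WT Th1 on top in both groups (difference -1.46 ± 0.17, adjusted p = 0.00121, and 0.254 without the pairing). Tbx21, which encodes T-bet, was read at 88.4, 47.9, 3.61 and 43.7 FPKM without vector and 61.0, 35.1, 2.43 and 40.4 FPKM with control vector, a difference of -0.38 ± 0.12 whose call (adjusted p = 0.0392) was lost without any 1 of the 4 pairs (adjusted p = 0.0516 to 0.141). Gata3 was read at 35.4, 23.5, 62.1 and 14.3 FPKM without vector and 24.9, 25.8, 95.7 and 29.7 FPKM with control vector and did not pass the test. Of 8 Th2 factors and receptors 1 rose and 1 fell (median 0.24). The cytotoxic list had 5 of 9 lower and 1 higher (median -0.81). Gzma, the protease granzyme A, was at 4.27, 26.0, 244 and 32.7 FPKM without vector and 2.09, 1.05, 4.96 and 0.197 FPKM with control vector, lower with the vector in each pair (difference -3.67 ± 0.69, adjusted p = 0.00553, and 0.437 with the T-bet and GATA3 vectors).

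Il7r, the IL-7 receptor α chain that sustains resting and memory T cells, was read at 106, 43.6, 107 and 104 FPKM without vector and 27.2, 9.82, 20.0 and 22.4 FPKM with control vector. The groups did not overlap (difference -2.12 ± 0.13, adjusted p = 0.000454). The naive and memory homing list had 6 of 20 lower and 2 higher (median -0.28), against 15.0% and 36.5% of all genes. The list had pair medians of -0.23, -1.01, 0.22 and -0.27, so it was not lower in the WT Th2 pair. Its members included the IL-6 receptor chain Il6ra at -1.31 ± 0.18, Dgka, a kinase that damps receptor signalling, at -1.24 ± 0.17 and the survival gene Bcl2 at -0.77 ± 0.16. Bach2, a repressor of effector genes that belongs to this list, went the other way, from 13.0, 11.8, 4.19 and 7.44 to 31.5, 35.4, 33.5 and 35.4 FPKM (difference 1.89 ± 0.25, adjusted p = 0.00162). Sterol synthesis had 8 of 21 lower and none higher (median -0.46), with pair medians of -0.83, -0.18, -0.75 and -0.20. The lower count was 14 after quantile normalization, 12 after upper-quartile scaling and 7 with small RNA genes left out. It was 6 with the T-bet and GATA3 vectors and 3 with WT Th1 replicate 2. Of the 21 sterol genes, 18 were highest in the WT Th2 library without vector. Autophagy and lysosome genes had 7 of 17 lower and 2 higher (median -0.35), with the carboxypeptidase Ctsa at -0.69 ± 0.12. The T cell identity list had 6 of 12 lower and none higher (median -0.51), with the CD3 chains Cd3g at -1.26 ± 0.14 and Cd3d at -1.13 ± 0.13. Its summed level was 2703 to 2921 FPKM without vector and 1902 to 2111 FPKM with control vector. In these bulk samples fewer cells of a type and less RNA per cell cannot be told apart. With WT Th1 replicate 2, the lower counts were 4 for effector cytokines, 2 for TNF ligands and costimulators and 5 for Th1 factors and receptors. They were 3 for cytotoxic, 4 for homing, 3 for sterol, 3 for lysosome and 4 for T cell identity genes. In that setting 1 gene was higher in each of the cytokine, TNF, homing and lysosome lists. Of all 8429 genes tested there 430 were lower.

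Many genes were called within each lineage, and 1 entry was called for a difference between them. Within Th1, 3245 genes (38.3%) were called, 2402 higher (28.4%) and 843 lower (9.95%). Within Th2, 3555 (42.0%) were called, 2330 higher (27.5%) and 1225 lower (14.5%). The test of the difference between the lineages called 1 entry (0.0118%), while 1171 genes had an unadjusted p under 0.05. Those counts rest on 2 pairs a lineage. The single call was an entry of Tgtp2, an interferon-inducible GTPase gene, listed at the place of its near-identical copy Tgtp1 and so uncertain. Leaving out 1 pair gave 3 lineage calls without WT Th1, 0 without STAT4 KO Th1, 1 without WT Th2 and 8 without STAT6 KO Th2. Th1 calls went to 491 without WT Th1 and 1424 without STAT4 KO Th1, and Th2 calls to 499 without WT Th2 and 1393 without STAT6 KO Th2, each then resting on a lone pair assumed to vary like the others. With WT Th1 replicate 2 the Th1 calls were 0 and the Th2 calls 1.

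**Figure D3:**
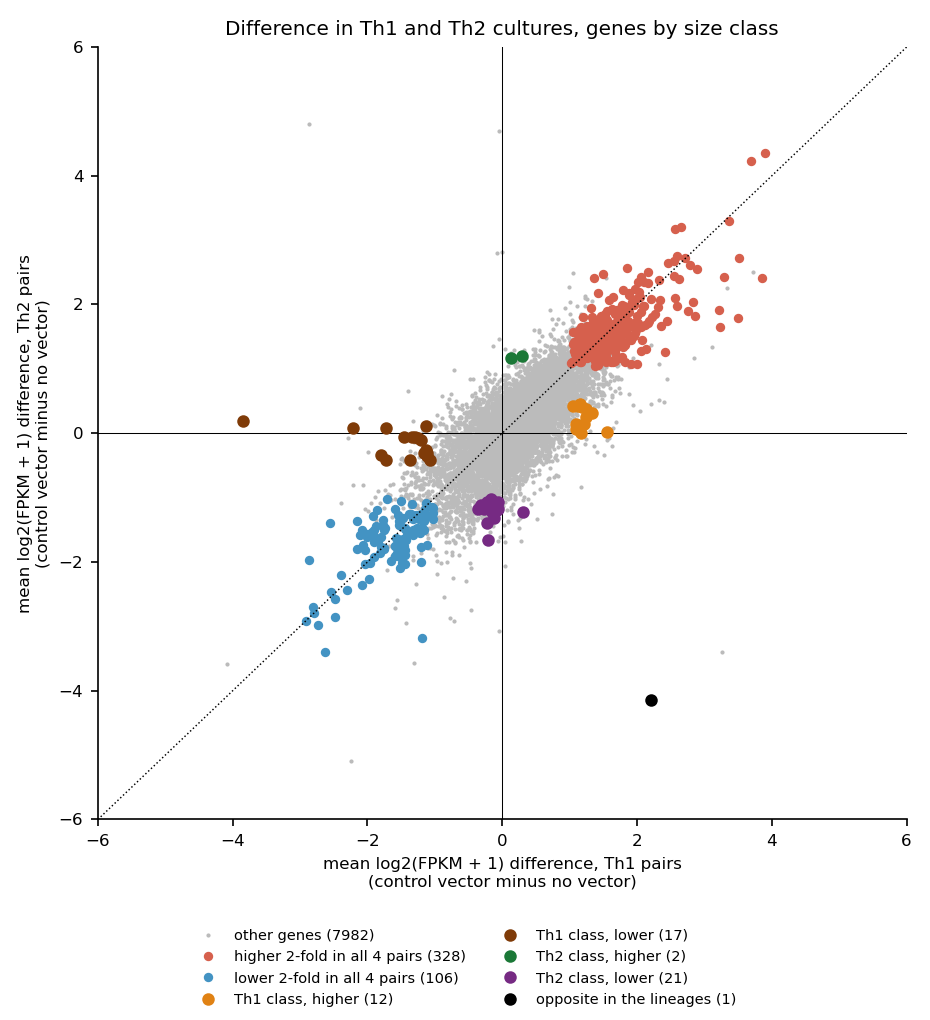
Mean log2 difference of the 2 Th1 pairs (horizontal axis) against that of the 2 Th2 pairs (vertical axis) for each of the 8469 genes tested, with the size classes coloured and a dotted line of equality. The 328 genes at least 2-fold higher and the 106 at least 2-fold lower in all 4 pairs lie along the line, and few genes lie far from it.

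By size alone, 12 genes were at least 2-fold higher in both Th1 pairs and under 0.5 in size in both Th2 pairs (0.142%), and 17 were lower in that way (0.201%). The reverse pattern held for 2 genes higher in Th2 (0.0236%) and 21 lower (0.248%). None of the genes in these 4 classes passed the test between lineages, where the next smallest adjusted p after the Tgtp2 entry was 0.352. Dctpp1, a nucleotide pyrophosphatase, was read at 13.4, 32.8, 52.6 and 35.8 FPKM without vector and 56.3, 72.5, 47.5 and 40.8 FPKM with control vector. Both Th1 pairs were higher with control vector and the Th2 pairs nearly level (Th2 minus Th1 difference -1.54 ± 0.34). Ccr4, a chemokine receptor of Th2 and skin-homing cells, was read at 23.8, 16.7, 94.5 and 16.7 FPKM without vector and 58.6, 36.4, 92.1 and 17.2 FPKM with control vector, with the same pattern (-1.17 ± 0.19). Chst2, a sulfotransferase, was at 57.2, 36.5, 14.7 and 19.2 FPKM without vector and 12.6, 13.7, 18.6 and 17.0 FPKM with control vector, lower with the vector in Th1 (1.80 ± 0.33). Egr1, an early response factor, was at 447, 291, 184 and 189.6 FPKM without vector and 139, 122, 154 and 206 FPKM with control vector, again lower in Th1 and near level in Th2 (1.40 ± 0.26). On the Th2 side the 2 higher genes were the inhibitory receptor Cd160, at 6.71, 37.5, 9.0 and 28.1 FPKM without vector and 5.58, 52.9, 21 and 66.1 FPKM with control vector (1.04 ± 0.29), and Bhlhe40, a transcription factor of cytokine control, at 320.1, 85.8, 80.7 and 62.6 FPKM without vector and 345, 119.9, 178 and 152 FPKM with control vector (0.91 ± 0.22). The chemokine receptor Cxcr6 was at 51.2, 4.64, 58.6 and 8.41 FPKM without vector and 70.1, 5.36, 24.2 and 3.11 FPKM with control vector, lower with the vector in both Th2 pairs and higher by less in both Th1 pairs (-1.53 ± 0.21).

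The other genes lower in Th2 by size included the ribosomal genes Rpl24, Rps20, Rpl21, Rplp1 and Rpl10 and the mitochondrial genes Mrpl30, Mrps18c, Atp5j2, Atp5c1 and Ndufb5, chosen for mention after their values were seen. Of 84 cytosolic ribosomal protein genes, which build the ribosome itself, 40 fell in the common test and 7 rose (median -0.58), against 15.0% and 36.5% of all genes. After upper-quartile scaling 62 were lower, against 1805 of all 8469 genes. After quantile normalization 22 were lower, against 1933 of all genes, which was near the share of all genes. Within Th2 64 were lower and 5 higher, against 14.5% and 27.5% of all genes. Within Th1 2 were lower and 5 higher, against 9.95% and 28.4%. The pair medians were -0.03, -0.40, -0.84 and -1.11. Transcript length moved with this. The 21 genes lower in Th2 had a median transcript length of 1502 bases against 4691 bases for the 17 lower in Th1 and 2909 bases for all tested genes. In the shortest of 5 equal bins of transcripts, up to 1638 bases, the median difference was 0.25, 0.02, -0.26 and -0.22 in the 4 pairs, and in the longest bin, from 4698 bases, 0.35, 0.21, 0.40 and 0.34. Spearman's rho of difference with length across 8205 genes (96.9% of those tested) was 0.05, 0.09, 0.27 and 0.25, and with GC content 0.01, 0.12, 0.27 and 0.26, as descriptions over genes of the same libraries. With the length and GC trend of each library removed, an alternative chosen after seeing the data, the ribosomal protein median was -0.21 with 18 lower and 10 higher. Of all 8205 genes in that setting 1270 were lower and 3167 higher. The classes lower in Th2, lower in Th1, higher in Th1 and higher in Th2 then held 6, 8, 4 and 3 genes, while 249 genes were at least 2-fold higher and 96 at least 2-fold lower in all pairs.

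All 30 early response genes of the T cell receptor passed the filter. The Th2 vector cultures carry no restimulation label, and no unstimulated library was used here for reference. In the common test 8 rose and 7 fell (median -0.01). Within Th1 11 fell and 6 rose (median -0.40), and within Th2 3 fell and 6 rose (median 0.31). Of all genes 28.4% rose and 9.95% fell within Th1, and 27.5% and 14.5% within Th2. No member was called for the difference between the lineages. The pair medians were -0.49, -0.35, 0.31 and 0.20. Nr4a1, an orphan nuclear receptor induced rapidly by receptor signalling, was read at 1059.7, 1319.9, 653 and 838 FPKM without vector and 619.7, 772, 859 and 1000.2 FPKM with control vector. For this gene the Th2 vector cultures, without a restimulation label, held levels above those of the Th1 vector cultures, which are labelled as restimulated (difference -0.22 ± 0.27, adjusted p = 0.506). Irf4 went the other way, at 416 and 350 FPKM in the Th1 and 245 and 298 FPKM in the Th2 vector cultures. Over all 8 libraries, 13 of the 30 genes were highest in WT Th1 without vector. Without vector the counts were 3 in STAT4 KO Th1, 0 in WT Th2 and 1 in STAT6 KO Th2. With control vector they were 10 in WT Th1, 2 in STAT4 KO Th1, 1 in WT Th2 and 0 in STAT6 KO Th2. These counts do not rank the 4 vector cultures among themselves. Myc, the growth regulator, was at 609.5, 257, 167 and 222 FPKM without vector and 381, 441, 279 and 381 FPKM with control vector and did not pass the test.

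Some members fell in every pair. Egr3, a factor that limits activation, was at 452, 730.0, 259 and 316 FPKM without vector and 100.3, 94.5, 110.4 and 106 FPKM with control vector, without overlap (difference -1.97 ± 0.28, adjusted p = 0.00212). Fosb, an AP-1 subunit, was at 76.5, 60.6, 33.5 and 39.2 FPKM without vector and 19.5, 13.3, 8.33 and 15.1 FPKM with control vector, again without overlap (difference -1.81 ± 0.15, adjusted p = 0.000652). Others rose in every pair. Tnfaip3, the NF-κB inhibitor A20, was at 41.6, 28.3, 36.7 and 24.6 FPKM without vector and 143, 102, 79.7 and 98.2 FPKM with control vector, without overlap (difference 1.65 ± 0.17, adjusted p = 0.000895). Dusp5, a phosphatase of ERK, was at 57.6, 21.8, 50.3 and 16.7 FPKM without vector and 131, 121, 146 and 95.5 FPKM with control vector, without overlap (difference 1.89 ± 0.24, adjusted p = 0.00153, and 0.0758 with WT Th1 replicate 2).

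**Figure D4:**
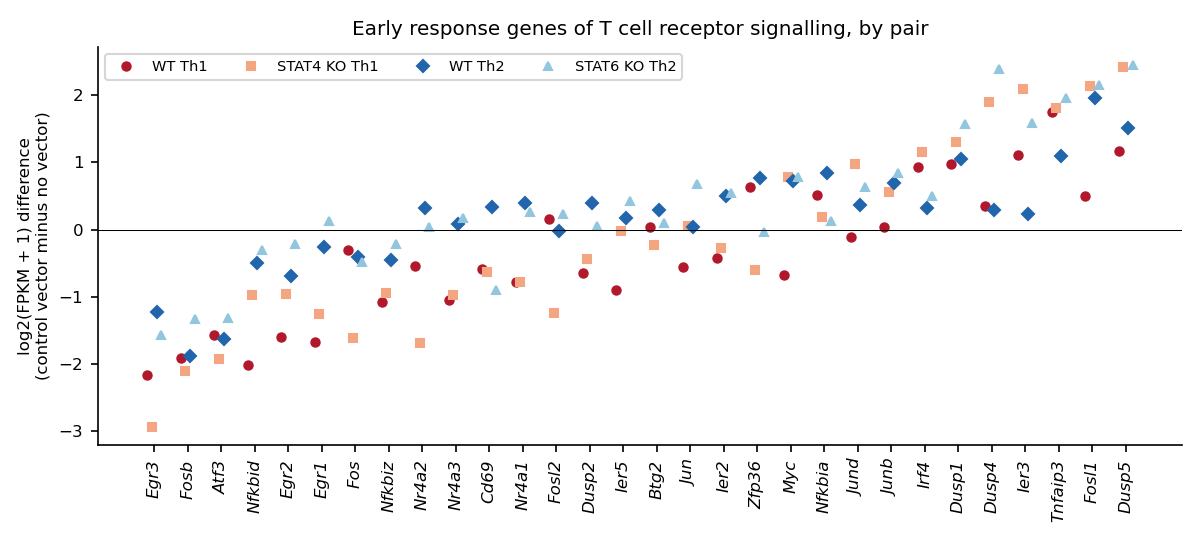
Log2 difference, control vector minus no vector, of the 30 early response genes in each of the 4 pairs. Egr3, Fosb and Atf3 lie below 0 and Tnfaip3 and Dusp5 above 0 in all 4 pairs, while Egr1 lies below 0 in the Th1 pairs by more than 1 and near 0 in the Th2 pairs.

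Interferon antiviral genes stood apart in 1 pair. Of 20 tested, 2 fell and none rose in the common test (median -0.63), below the 15.0% and 36.5% of all genes. None was called within Th1 or within Th2. The median was -2.42 in the WT Th2 pair against -0.19, -0.19 and 0.15 in WT Th1, STAT4 KO Th1 and STAT6 KO Th2. Isg15, a ubiquitin-like antiviral protein, was read at 35.5, 7.41, 59.3 and 6.76 FPKM without vector and 26.7, 4.26, 1.95 and 5.60 FPKM with control vector. Rtp4, another interferon-induced gene, was at 8.56, 8.95, 35.3 and 11.4 FPKM without vector and 6.03, 6.13, 0.0866 and 8.12 FPKM with control vector. The WT Th2 library was the highest of the 8 without vector and the lowest with control vector for both, and neither passed the common test (adjusted p = 0.115 and 0.124). The same held more widely, since 13 of the 20 genes were highest in WT Th2 without vector and 18 of 20 lowest in WT Th2 with control vector, and this pair has 1 library on each side. The list of viral sensing and restriction genes, through which cells detect viruses, had 2 of 13 higher and 1 lower (median -0.17). Those counts were also below the 36.5% and 15.0% of all genes.

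No B cell, NK cell, myeloid, mast cell or erythroid marker passed the filter. The highest values were 1.13 FPKM among B cell markers and 0.21 FPKM among NK cell markers. In the WT Th2 library without vector, the macrophage gene Emr1 reached 8.42 FPKM and the mast cell gene Cpa3 10.2 FPKM, while Lyz1, S100a8, S100a9 and Fcer1a were listed at 0 in all 8. Cd8b1 reached at most 5.65 FPKM. Of 10 dendritic cell markers 2 were tested, H2-Ab1 and Cd74, and the summed level of all 10 was 4.61 to 33.8 FPKM without vector and 13.9 to 44.4 FPKM with control vector. H2-Ab1, an MHC class II chain, was at 4.50, 1.09, 5.26 and 0.371 FPKM without vector and 12.3, 3.87, 11.6 and 4.17 FPKM with control vector (difference 1.35 ± 0.17, adjusted p = 0.00143, but 0.0953 without the pairing and 0.734 with WT Th1 replicate 2). The part of such cells in any result was not tested. Mouse Ngfr was listed at no more than 0.0613 FPKM, which does not check the vector, since that carries the human gene.

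Some library-wide measures separated the groups without overlap, and the smallest p that the exact sign-flip permutation over 4 pairs can give, two-sided, is 0.13, which is above 0.05. Genes listed at 0 numbered 8576 to 8882 without vector and 5525 to 6856 with control vector, and genes above 0 but under 0.1 FPKM 2668 to 2867 and 4224 to 5246 (both at that exact p). Rn45s stood at 81.2 to 97.6 FPKM without vector and 549 to 844 FPKM with control vector, Lars2 at 14.4 to 23.0 and 135 to 194 FPKM, and the nuclear RNA Malat1 at 93.7 to 122 and 36.6 to 53 FPKM. In WT Th1 replicate 2, a no-vector library outside the pairs, Rn45s was at 879 FPKM, above every control-vector library. Lars2 was at 35.4 and Malat1 at 87.2 FPKM in that library. Malat1 was at 44.8 and 42.6 FPKM with the T-bet vector and at 96.8 and 72.5 FPKM with the GATA3 vector. The 10 highest genes held 9.81 to 12.3% of all FPKM without vector and 7.90 to 8.67% with control vector. The share of small RNA genes was 5.50 to 5.58% and 4.59 to 6.44%, higher with control vector in 2 of 4 pairs (exact p = 0.875). Except for the share of small RNA genes, these measures differed in the same direction in all 4 pairs, and their part in the common differences was not tested.

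**Figure D5:**
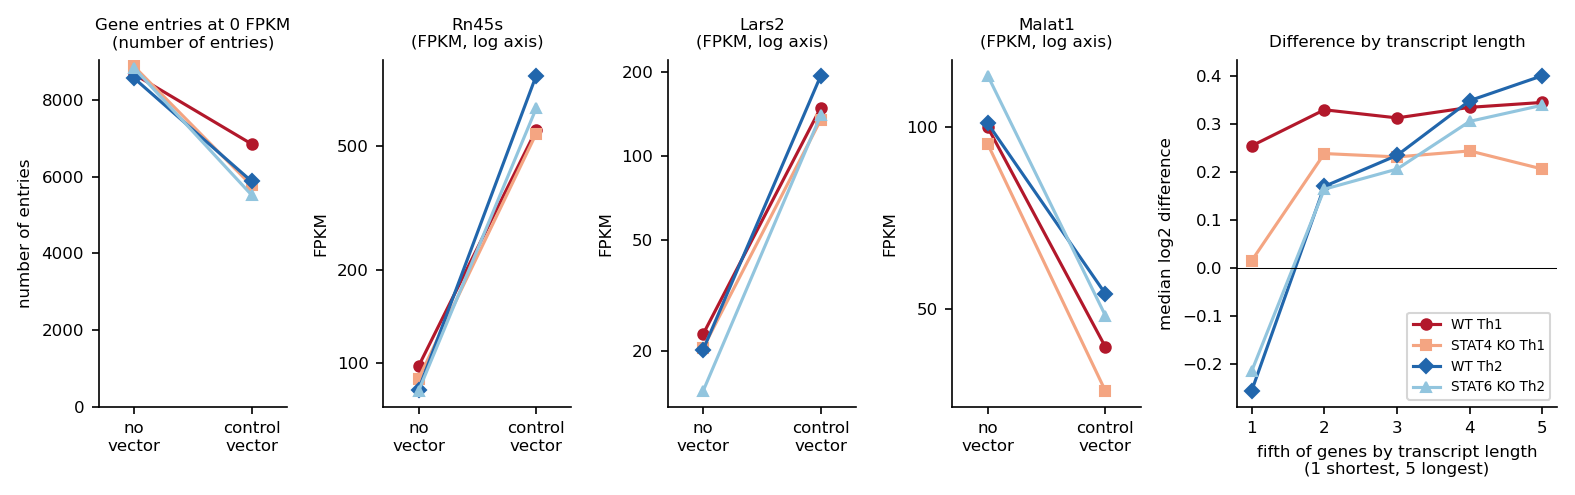
Genes listed at 0 and FPKM of Rn45s, Lars2 and Malat1 by library, with lines joining each pair, and the median log2 difference by bin of transcript length (5 bins of equal size) for each pair. The first 4 measures separate no-vector from control-vector libraries in all 4 pairs, and the length panel shows lower medians for the shortest transcripts in the 2 Th2 pairs. WT Th1 replicate 2, a no-vector library with Rn45s at 879 FPKM, is not drawn.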

How the data were processed

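RNA-seq of sorted and cultured CD4+ T cells was made from total RNA with TruSeq libraries, per the labels' protocols. The authors deposited 1 gene-level FPKM table with Cufflinks intervals per library, per the file headers. TopHat, Cufflinks and build mm9 are named in the submitters' processing notes, with no version, and the annotation is not named. From these, log2(FPKM + 1) was computed for 23700 entries. The tables held no read counts, so no count model was used. Genes needed 3 FPKM in 4 of 8 libraries, which 8501 entries reached. Among all 23700 entries 39 had a failed estimate in any of the 8, and leaving these out left 8469 to test. limma 3.58.1 in R 4.3.3 (eBayes with trend) fitted the common difference with culture type as a block (3 residual degrees of freedom, prior 3.71), and in another fit the difference within Th1, within Th2 and between them (2 residual degrees of freedom, prior 3.44). p-values were Benjamini-Hochberg adjusted over all genes tested. Library measures were compared by an exact sign-flip permutation over the 4 pairs. The scripts were tested on simulated data. Since nothing says the libraries came from separate animals, p-values measure the spread between these samples. The deposited intervals put the median gene within 6.61 to 8.69% at 3 to 10 FPKM and 3.71 to 4.65% at 10 to 100 FPKM, for counting error only.

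The members, gene lists and tests were chosen with earlier results of these data known. Named genes were the 12 highest and 12 lowest common differences among called genes at least 2-fold different in all 4 pairs, up to 6 from each lineage class in each direction, called members of each list (its 4 largest differences where none was called), and Stat4, Stat6, Tbx21 and Gata3. Of the 12 highest, 1 is not reported here. Symbols at several loci, small RNA, predicted and ribosomal protein genes were left out of that choice. Il2, Il4, Nr4a1, Myc, Isg15, Rtp4 and Cd74 did not pass the common test, fell outside it and were chosen after their values were seen. Alternatives changed the pseudocount, the filter, the scaling, the pairing, the variance trend and the libraries used. Coordinates of genes are those of the deposited tables (mm9), and promoter sequences are RefSeq's on GRCm38.p6, matched by symbol for 6096 of 8417 gene symbols tested. Transcript lengths and GC came from the GENCODE annotation of the mouse. The chromatin samples and the T-bet KO library were not used here.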

Additional observations from a re-analysis of the deposited data

Results flagged for a closer look

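One entry differed between the lineages by the test of that difference. The Tgtp2 entry listed at the place of Tgtp1 (chr11:48798831-48805756, mm9) had a Th2 minus Th1 difference of -6.35 ± 0.25 (SE, limma, adjusted p = 0.00655). It was read at 0.0015, 3.76, 17.3 and 16.0 FPKM without vector and at 4.27, 18.3, 0.0020 and 0.0018 FPKM with control vector, in the order Th1 from WT, Th1 from STAT4 KO, Th2 from WT and Th2 from STAT6 KO mice. The entry of Tgtp1 at the same place had a difference of -0.87 (adjusted p = 0.467) and the other entry of Tgtp2 -1.34 (adjusted p = 0.392). These copies are near-identical and can share reads, so the value is uncertain.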

How the results depend on the processing

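No paired analysis was possible by replicate number because each group of the 4 pairs had 1 library, so the pairing is by culture type. The common count of 4364 ranged from 2944 to 4576 with 1 pair left out and was 1623 with WT Th1 replicate 2. The lineage count of 1 was 0 at a pseudocount of 0.1, without a filter, without the pairing, with WT Th1 replicate 2 and with the T-bet and GATA3 vectors, was 2 with a filter of 1 FPKM in 2 libraries, and ranged from 0 to 8 with 1 pair left out. The Th1 count of 3245 was 948 without a filter, 1749 without the pairing, 0 with WT Th1 replicate 2 and 491 to 2944 with 1 pair left out. The Th2 count of 3555 was 1422, 2147 and 1 under the same settings and 499 to 3764 with 1 pair left out. A lone pair is assumed to vary like the others, and leaving out a pair leaves fewer samples to the fit. Otherwise the cause was not tested. The count of 434 genes at least 2-fold different in all pairs moved by less than 1.5 times under every alternative, but its parts, 328 higher and 106 lower, were 196 and 163 after upper-quartile scaling and 165 and 177 after quantile normalization.

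Signs reversed with the T-bet and GATA3 vectors for Sema4b (Th2 minus Th1 0.18), Cd160 (Th2 minus Th1 -1.3), Tbx21 (common 0.39), Il1rl1 (common 1.3) and Nkg7 (common 0.85), and with WT Th1 replicate 2 for Cxcl10 (0.14), Fbl (-0.14) and Gpi1 (-0.15). The libraries with T-bet or GATA3 vector differ from the control-vector ones by the ectopic factor as well. Since Tbx21 encodes T-bet, its value there does not check the control-vector difference. The causes of the reversals were not tested. Of 230 called genes named or listed, 84 kept the call under every alternative and 33 lost it only with WT Th1 replicate 2. The depth of each library is an estimate, and 1 library a group limits every value.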

Other observations

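Further lists showed no single direction or few calls. Of all genes tested 36.5% rose and 15.0% fell. Of 9 inhibitory receptors tested, 3 rose and 1 fell (median 0.42), and Lag3, which binds MHC class II, rose by 1.97 ± 0.38 (SE, n = 4 pairs, adjusted p = 0.00599, and 0.256 with WT Th1 replicate 2). Of 12 genes of cytokine signal feedback 3 rose and 2 fell (median -0.13). Fatty acid synthesis had 3 genes higher and 3 lower of 10 (median 0.09), with the elongase Elovl5 at -1.11 ± 0.12 (adjusted p = 0.000905). Of 13 genes of MHC class I presentation 3 fell and none rose (median -0.26). All 13 were lowest of the 8 libraries in WT Th2 with control vector. The median was 0.11 in WT Th1, -0.31 in STAT4 KO Th1, -0.88 in WT Th2 and -0.01 in STAT6 KO Th2. The class I light chain B2m was lower by more in Th2 than in Th1 (-1.58 against -0.66, difference not called). Its common call (adjusted p = 0.0155) was lost without the STAT4 KO Th1 pair (0.0565) and without the WT Th2 pair (0.0704). Of 7 chemokine receptors tested 2 fell and none rose (median -0.37).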
